A study of Mus musculus with 18 samples.

Results

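The 34 genes described here comprise 23 genes of glucose transport, glycolysis and lactate or pyruvate handling, 10 targets of the hypoxia response, and Hif1a, the oxygen-regulated subunit of the hypoxia-inducible transcription factor. They were taken from the normalized expression table by their gene symbols. All 34 had a row among the 22019 genes of the table, and all 34 belonged to the 16021 genes that were tested because they lay above the lowest value of the table, 1, in at least 3 of the 18 libraries. The RNA came from NIH 3T3 cells, an established line of mouse embryonic fibroblasts, here stably carrying a construct that doxycycline switches on. SUN1L is the lumenal part of SUN1 with a signal sequence, an HA tag and an endoplasmic reticulum retrieval sequence, and is used as a dominant negative that disrupts the LINC complex, the protein bridge between the nucleus and the cytoskeleton. KDEL, the control, is a GFP held in the endoplasmic reticulum. All groups received 1 μg/ml doxycycline and grew for 48 hr on gels of 1 kPa (soft) or 308 kPa (stiff).

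Libraries are named by the serial numbers of the sequencing laboratory. KDEL cells on 1 kPa were libraries 4, 16 and 28, and KDEL cells on 308 kPa were libraries 8, 20 and 32. SUN1L cells on 1 kPa were libraries 3, 15 and 27, and SUN1L cells on 308 kPa were libraries 7, 19 and 31. KDEL cells on 308 kPa were also treated with 25 μM Y27, a kinase inhibitor that lowers myosin tension (libraries 12, 24 and 36), or with 10 μM blebbistatin, an inhibitor of myosin II motor activity (libraries 10 and 22), each for 48 hr. The methods call the replicates biological. The labels of library 34 contradict each other, because the construct is an empty vector, the source name holds Y27 and the entry for myosin inhibition holds blebbistatin. The heading of its column gives the empty vector with Y27 under a serial number that differs from the title, so that the values called library 34 are matched by the heading alone, and this library on 308 kPa entered no comparison. Values of a group are given below in the order of its libraries as listed here.

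Glycolysis splits glucose into pyruvate in the cytosol, and lactate dehydrogenase and the lactate transporters let the flow go on when mitochondria use little of that pyruvate. In cells with enough oxygen, prolyl hydroxylases of the Egln family mark Hif1a protein for degradation. When oxygen is short the protein accumulates and, with its partner Arnt, binds short DNA elements near many genes, among them most of the glycolytic genes, Vegfa and Adm. Proliferating fibroblasts in culture use much glucose and express most of these enzymes at high levels. Because Hif1a is controlled mainly as a protein, the level of its messenger RNA does not measure its activity.

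The files hold 1 normalized signal per gene and library, and the steps between low values gave an estimate of 12670000 to 19460000 read pairs per library, with 1 read pair worth 1.70 to 2.49 signal units. A difference of a few such units could not be detected. Signal of Sun1, which the construct adds to, was 2785 to 3799 in the 11 KDEL libraries, 3656 in library 34, and 38452 to 82617 in the 6 SUN1L libraries, so each library carried the Sun1 signal of its labelled construct. The fibroblast genes Col1a1, Col1a2, Vim and Fn1 had signals of at least 32648 in every library. Epcam and Krt18 of epithelial cells and Ptprc of leukocytes reached at most 2.49, 1 and 11.7, and Kdr of endothelial cells at most 11.9. Low signal was found for Cdh1 (88 to 311), Cd68 (58.7 to 304), and Cdh5 (7 to 234) and Pecam1 (7.87 to 70.3) of endothelial cells. Libraries 3, 7 and 8 stood apart from the other 15. The signal summed over 12 genes of cell division was 7773, 9570 and 12247 in them and between 54269 and 94542 in each other library. The medians and the counts of genes at an unadjusted p under 0.05 are also given without these 3 libraries. Counts of groups without overlap use all libraries. These 3 libraries were marked for low Gapdh, itself among the 34 genes, so values of the 34 genes without them are a description and no test.

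Promoter sequences of 6 genes are shown because glycolytic and hypoxia genes are known to share a core element bound by the hypoxia-inducible factor. The letters ACGTG and GCGTG were searched on both strands in the 250 bases before each RefSeq gene start of GRCm38.p6, with overlapping matches counted as 1. Of the 34 genes, 32 had an entry, and Slc2a3 and Ndrg1 had none. At least 1 match lay in 37 of the 46 windows of these 32 genes (80.4%) and in 29 of the 32 genes (90.6%). A match in any window was held by 41.5% of all 27025 RefSeq genes with a window. Over all 32851 windows of RefSeq genes the share was 38.6%, and over the 14863 windows of tested genes it was 51.4%. A share by gene was not computed for the tested genes alone. Because the list was made of glycolytic and hypoxia genes, its shares are a description and no test. Genes with several starts are shown by the start farthest upstream. The windows are chr7:46845554-46845803 for Ldha (plus strand, 3 matches, inside the longer gene bounds of the deposited table), chrX:106186850-106187099 for Pgk1 (plus strand, 2 matches) and chr19:41911621-41911870 for Pgam1 (plus strand, 3 matches). Those of the hypoxia genes are chr7:138909507-138909756 for Bnip3 (minus strand, 4 matches), chr7:110627407-110627656 for Adm (plus strand, 2 matches) and chr17:46032378-46032627 for Vegfa (minus strand, 0 matches, while the window of another Vegfa start held 2). Matches are in capitals and each sequence runs 5′ to 3′ on the strand of its gene.
Ldha: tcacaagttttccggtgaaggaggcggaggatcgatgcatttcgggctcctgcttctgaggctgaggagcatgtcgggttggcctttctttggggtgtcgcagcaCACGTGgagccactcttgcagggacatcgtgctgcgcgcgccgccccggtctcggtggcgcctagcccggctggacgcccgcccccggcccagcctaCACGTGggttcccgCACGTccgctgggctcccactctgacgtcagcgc
Pgk1: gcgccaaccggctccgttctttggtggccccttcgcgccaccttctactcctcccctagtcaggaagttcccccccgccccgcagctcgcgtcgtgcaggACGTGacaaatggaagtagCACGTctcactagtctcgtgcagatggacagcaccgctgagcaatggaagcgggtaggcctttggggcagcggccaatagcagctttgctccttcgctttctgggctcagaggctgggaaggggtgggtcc
Pgam1: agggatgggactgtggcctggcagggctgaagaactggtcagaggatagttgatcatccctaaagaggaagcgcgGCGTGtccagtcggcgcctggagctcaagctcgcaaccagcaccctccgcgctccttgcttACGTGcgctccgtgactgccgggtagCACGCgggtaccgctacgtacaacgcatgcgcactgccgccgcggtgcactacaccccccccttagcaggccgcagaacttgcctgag
Bnip3: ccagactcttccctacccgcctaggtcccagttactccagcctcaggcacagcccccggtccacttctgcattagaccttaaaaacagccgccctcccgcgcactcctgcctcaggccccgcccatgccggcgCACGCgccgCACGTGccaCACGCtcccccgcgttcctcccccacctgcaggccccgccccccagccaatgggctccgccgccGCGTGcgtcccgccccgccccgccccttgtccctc
Adm: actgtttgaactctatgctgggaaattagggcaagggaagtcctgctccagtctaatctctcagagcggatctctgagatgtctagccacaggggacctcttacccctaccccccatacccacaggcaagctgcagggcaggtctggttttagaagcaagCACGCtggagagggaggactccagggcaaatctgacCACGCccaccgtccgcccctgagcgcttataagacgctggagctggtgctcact
Vegfa: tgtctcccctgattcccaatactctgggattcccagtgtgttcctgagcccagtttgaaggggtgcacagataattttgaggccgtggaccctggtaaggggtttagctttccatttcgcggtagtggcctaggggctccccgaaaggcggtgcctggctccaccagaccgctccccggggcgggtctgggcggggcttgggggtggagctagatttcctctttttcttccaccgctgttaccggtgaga
A match is a description of the letters in the window. Binding was not measured here, and bases outside the windows were not searched. A link between matches and the levels in the libraries was not tested.

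The plot of all 34 genes by library shows each level against the median of its gene.

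**Figure D1:**
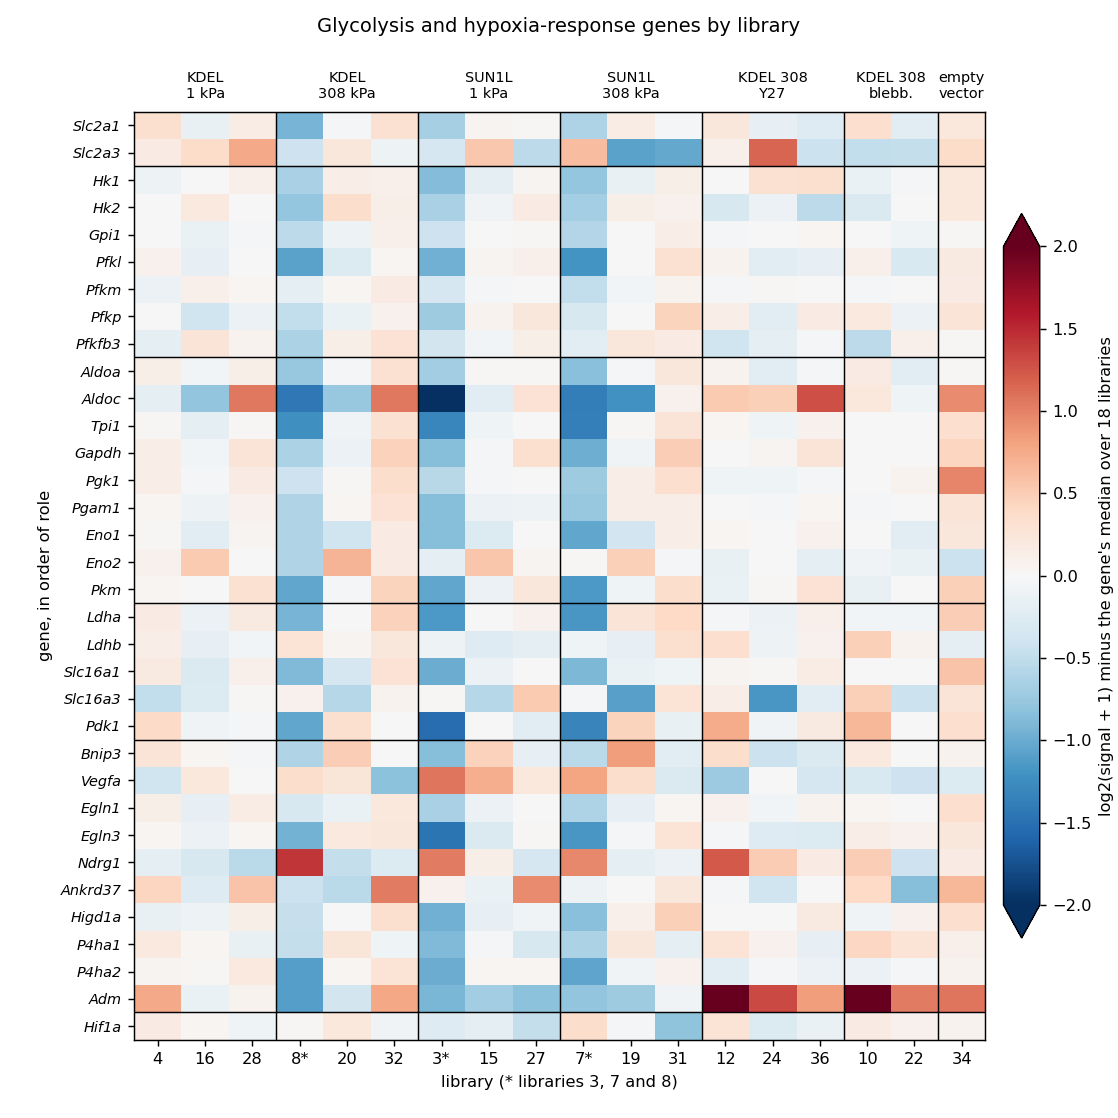
Level of each of the 34 genes (rows, ordered by role) in each of the 18 libraries (columns, ordered by group), as log2(signal + 1) minus the median of the gene over the 18 libraries, with blue below and red above the median and the colour scale ending at −2 and 2. Columns marked with an asterisk are libraries 3, 7 and 8, which are blue for most glycolytic genes and red for Vegfa and Ndrg1. Adm is red in the 3 Y27 and 2 blebbistatin libraries and in library 34. It is also red in libraries 4 and 32 without an inhibitor (signals of 473 and 478).

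Glucose enters the cell through transporters of the Slc2a family. Slc2a1, a widely expressed glucose transporter (ENSMUSG00000028645, chromosome 4 of GRCm38 from 119108711 to 119137330, plus strand), had signals of 5513, 3998 and 4938 in KDEL cells and 2792, 4599 and 4528 in SUN1L cells on 1 kPa, and of 2324, 4310 and 5456 and 2876, 4941 and 4344 on 308 kPa. With Y27 the signals were 5193, 3949 and 3720, with blebbistatin 5571 and 3775, and in library 34 5115. Libraries 8, 3 and 7 gave the lowest 3 values, from 2324 to 2876, and no pair of compared groups was free of overlap. Slc2a3, the transporter known from neurons, was at the limit of detection, between 1 and 8.42 in the 18 libraries. Its values were 3.75, 4.43 and 6.13 and 2.33, 5.11 and 1.95 on 1 kPa in KDEL and SUN1L cells, and 2.16, 3.93 and 2.94 and 5.44, 1 and 1.07 on 308 kPa. With Y27 they were 3.52, 8.42 and 2.15, with blebbistatin 1.99 and 2.02, and library 34 had 4.42.

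Hexokinase traps glucose in the cell, Gpi1 isomerizes it, and phosphofructokinase makes the committed step. Per length of the longest GENCODE M1 coding transcript, the median level over the 18 libraries was 1066 signal units per kb for Hk1 and 635 for Hk2, 1361 for Pfkl, 672 for Pfkm and 158 for Pfkp, the liver, muscle and platelet forms of phosphofructokinase, 7702 for Gpi1, and 57 for Pfkfb3, which makes an activator of phosphofructokinase. Pfkl varied most between libraries in this group, with signals of 5379, 4544 and 5061 in KDEL and 2599, 5260 and 5469 in SUN1L cells on 1 kPa, and of 2425, 4205 and 5222 and 2224, 5093 and 6268 on 308 kPa. It was 5335, 4323 and 4513 with Y27, 5454 and 4110 with blebbistatin and 5755 in library 34, so that libraries 3, 7 and 8 had the lowest 3 values. Hk1 came next, with 4261, 4585 and 4892 and 2513, 4045 and 4717 on 1 kPa, 2908, 4978 and 4910 and 2668, 4107 and 4972 on 308 kPa in KDEL and SUN1L cells, 4538, 5625 and 5681 with Y27, 4176 and 4425 with blebbistatin and 5253 in library 34. Its lowest 3 values were again those of libraries 3, 7 and 8. The muscle form Pfkm varied least of all 34 genes and stayed between 1370 and 2170.

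The genes from aldolase to pyruvate kinase include those of the energy-returning steps of glycolysis, and held the most abundant transcripts of the 34. The median per kb was 32572 for Pkm (pyruvate kinase), 26094 for Pgk1 (phosphoglycerate kinase), 22410 for Gapdh (glyceraldehyde phosphate dehydrogenase), 14247 for Pgam1 (phosphoglycerate mutase), 12702 for Aldoa (aldolase), 9908 for Tpi1 (triose phosphate isomerase) and 8059 for Eno1 (enolase). The neuronal forms were far lower, with 415 for Eno2 and 5.04 for Aldoc. Several of these genes, Gapdh among them, have near-identical processed pseudogenes, and beyond the mapping-quality limit of the authors it is not stated how shared reads were treated, so their levels are uncertain in that respect.

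Gapdh (ENSMUSG00000057666, chromosome 6 of GRCm38 from 125161715 to 125166467, minus strand), often used as a reference gene, had signals of 35008, 30544 and 38073 in KDEL cells on 1 kPa (mean 34541 ± 3786, SD, n = 3) and 20567, 29280 and 43715 on 308 kPa (31187 ± 11691, SD, n = 3). In SUN1L cells they were 17644, 30965 and 39614 on 1 kPa (29407 ± 11068, SD, n = 3) and 16106, 30201 and 44543 on 308 kPa (30283 ± 14219, SD, n = 3). With Y27 they were 31810, 33143 and 38249, with blebbistatin 31835 and 31543, and in library 34 42660. The 3 libraries that were marked for low Gapdh held 20567 (8), 17644 (3) and 16106 (7), each the lowest of its group, while the other 15 lay between 29280 and 44543. Tpi1 (ENSMUSG00000023456, chromosome 6 of GRCm38 from 124810586 to 124814296, minus strand) had 16227, 14008 and 16188 in KDEL and 6461, 15040 and 16023 in SUN1L cells on 1 kPa, and 6779, 15130 and 19596 and 6166, 16193 and 18981 on 308 kPa. It was 16347, 15067 and 16954 with Y27, 15763 and 15820 with blebbistatin and 20069 in library 34. Libraries 3, 7 and 8 gave 6461, 6166 and 6779, and each other library at least 14008. Aldoc, the aldolase of the brain, was low and the most variable of its role, with 12.3, 7.69 and 30.2 and 1.87, 12 and 17.4 in KDEL and SUN1L cells on 1 kPa and 4.57, 7.87 and 30.1 and 4.74, 5.46 and 15 on 308 kPa. With Y27 it was 20.7, 19.9 and 35.9, with blebbistatin 16.3 and 13.1, and in library 34 27.9.

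**Figure D2:**
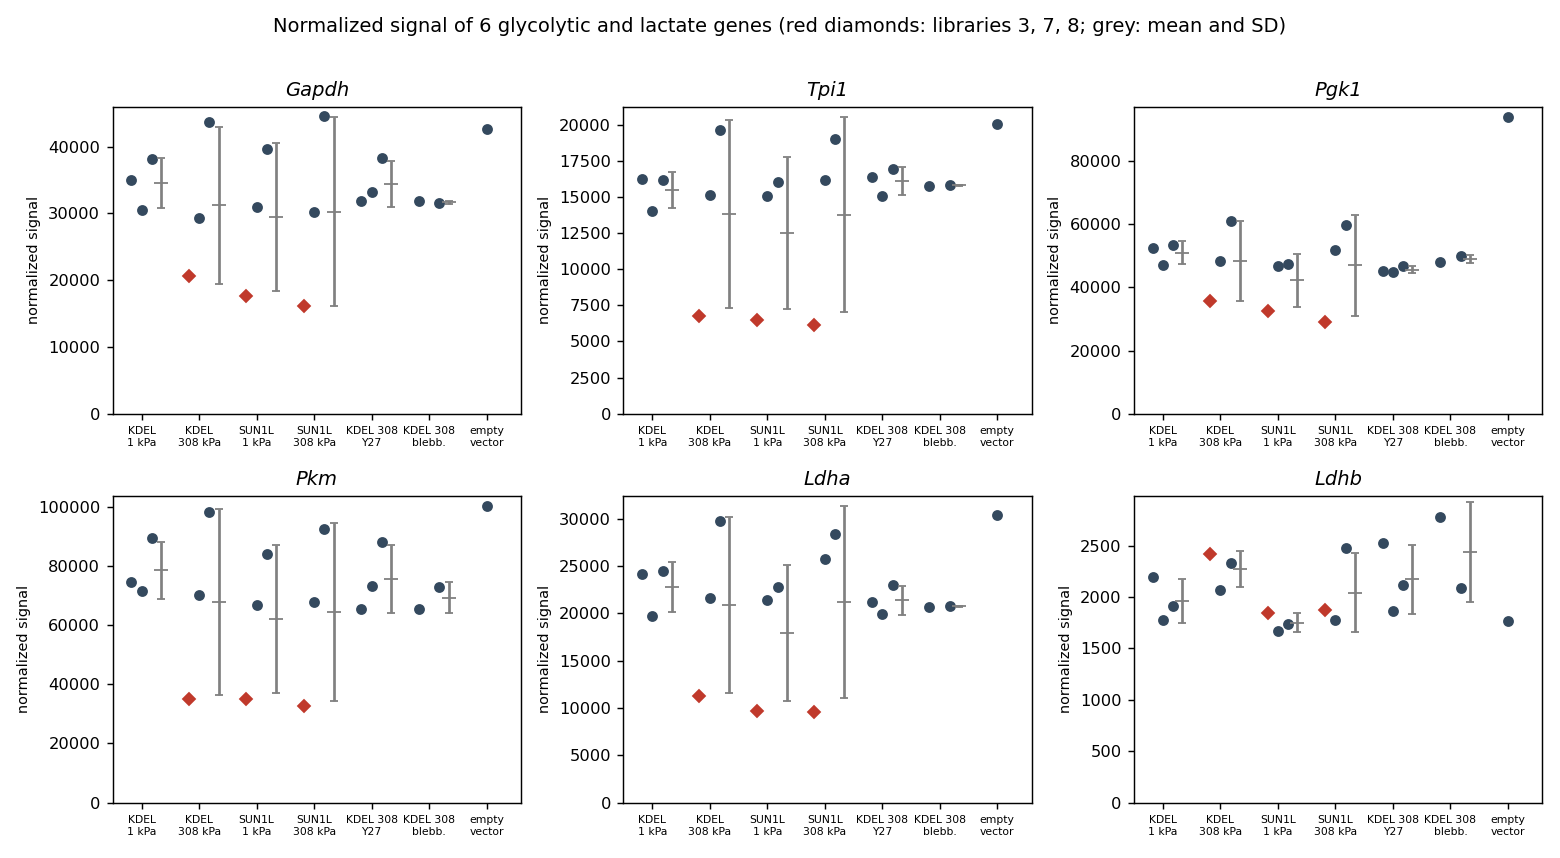
Normalized signal (vertical axis, linear from 0) of 6 glycolytic and lactate genes in each library, by group (horizontal axis), with the mean and SD of a group in grey and libraries 3, 7 and 8 as red diamonds. For Gapdh, Tpi1, Pgk1, Pkm and Ldha the red diamonds are the lowest points of their groups, for Ldhb they are not, and the single empty vector library is the highest point for Tpi1, Pgk1, Pkm and Ldha.

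Lactate dehydrogenase interconverts pyruvate and lactate, and its subunits are encoded by Ldha and Ldhb. Ldha (ENSMUSG00000063229, chromosome 7 of GRCm38 from 46841475 to 46855627, plus strand) had signals of 24180, 19744 and 24457 in KDEL and 9705, 21382 and 22770 in SUN1L cells on 1 kPa, and of 11263, 21650 and 29714 and 9594, 25683 and 28333 on 308 kPa. With Y27 they were 21149, 19928 and 23021, with blebbistatin 20713 and 20779, and in library 34 30362. Ldhb behaved otherwise, since libraries 3 and 8 were the highest of their groups for it and library 7 lay between the other 2 of its group. The ratio of Ldha to Ldhb signal was 5.25 in library 3, 5.13 in library 7 and 4.66 in library 8, against 7.45 to 17.2 in the other 15 libraries. Pdk1, the kinase that holds pyruvate back from the mitochondrial pyruvate dehydrogenase, had 1203, 884 and 903 and 320, 924 and 794 in KDEL and SUN1L cells on 1 kPa and 448, 1153 and 929 and 371, 1258 and 834 on 308 kPa. It was 1558, 887 and 1054 with Y27, 1473 and 934 with blebbistatin and 1168 in library 34. Libraries 3, 7 and 8 gave the lowest 3 values of Pdk1. Of the lactate transporters, Slc16a1 lay between 1719 and 5068 and Slc16a3 between 11.2 and 38.2.

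Among the hypoxia targets, Adm, which encodes the vasodilator peptide adrenomedullin (ENSMUSG00000030790, chromosome 7 of GRCm38 from 110627661 to 110629820, plus strand), varied most. Its signal was 473, 255 and 293 in KDEL cells (mean 340 ± 116, SD, n = 3) and 149, 173 and 159 in SUN1L cells (160 ± 11.9, SD, n = 3) on 1 kPa. On 308 kPa it was 130, 217 and 478 in KDEL cells (275 ± 181, SD, n = 3) and 161, 170 and 268 in SUN1L cells (200 ± 58.9, SD, n = 3). With Y27 it was 1250, 701 and 500 (817 ± 388, SD, n = 3), with blebbistatin 1122 and 574 (848 ± 388, SD, n = 2), and in library 34 588. Each library with an inhibitor was above each untreated library on the stiff gel, and each SUN1L library was under each KDEL library on the soft gel. Ndrg1, a gene induced by several kinds of stress, had 1020, 933 and 798 in KDEL and 2383, 1257 and 919 in SUN1L cells on 1 kPa, and 3150, 841 and 965 and 2260, 1019 and 1080 on 308 kPa. It was 2726, 1656 and 1299 with Y27, 1638 and 878 with blebbistatin and 1309 in library 34. Libraries 8, 3 and 7 were the highest of their groups for Ndrg1, with all other values of those groups at 1257 or less. Libraries 4, 12 and 10 were also the highest of their groups for Ndrg1, with 1020, 2726 and 1638.

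Vegfa, which encodes the growth factor of blood vessels (ENSMUSG00000023951, chromosome 17 of GRCm38 from 46016993 to 46032377, minus strand), had signals of 1931, 2922 and 2557 in KDEL (2470 ± 501, SD, n = 3) and 5327, 4201 and 2940 in SUN1L cells (4156 ± 1194, SD, n = 3) on 1 kPa. On 308 kPa they were 3231, 2981 and 1433 in KDEL and 4386, 3247 and 2067 in SUN1L cells. With Y27 they were 1527, 2508 and 2007, with blebbistatin 2051 and 1894, and in library 34 2097. The highest value of the 18 was that of library 3, and the 3 SUN1L libraries on 1 kPa lay above the 3 KDEL libraries. Hif1a (ENSMUSG00000021109, chromosome 12 of GRCm38 from 73901375 to 73947530, plus strand) stayed within a narrower range, with 7067, 6498 and 5911 in KDEL and 5258, 5587 and 4538 in SUN1L cells on 1 kPa and 6379, 7263 and 6013 and 8009, 6231 and 3609 on 308 kPa. It was 7611, 5239 and 5769 with Y27, 7043 and 6670 with blebbistatin and 6622 in library 34. Both extremes, 3609 and 8009, came from SUN1L cells on 308 kPa.

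The remaining hypoxia genes are given by their range over the 18 libraries. Bnip3, a receptor for the removal of mitochondria, lay between 455 and 1473, and Higd1a, a mitochondrial protein, between 700 and 1898. The oxygen sensors Egln1 and Egln3 lay between 1325 and 2620 and between 312 and 1040, and P4ha1 and P4ha2, subunits of the collagen prolyl hydroxylase, between 3400 and 8392 and between 1599 and 4133. Ankrd37 lay between 20.4 and 78.4.

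**Figure D3:**
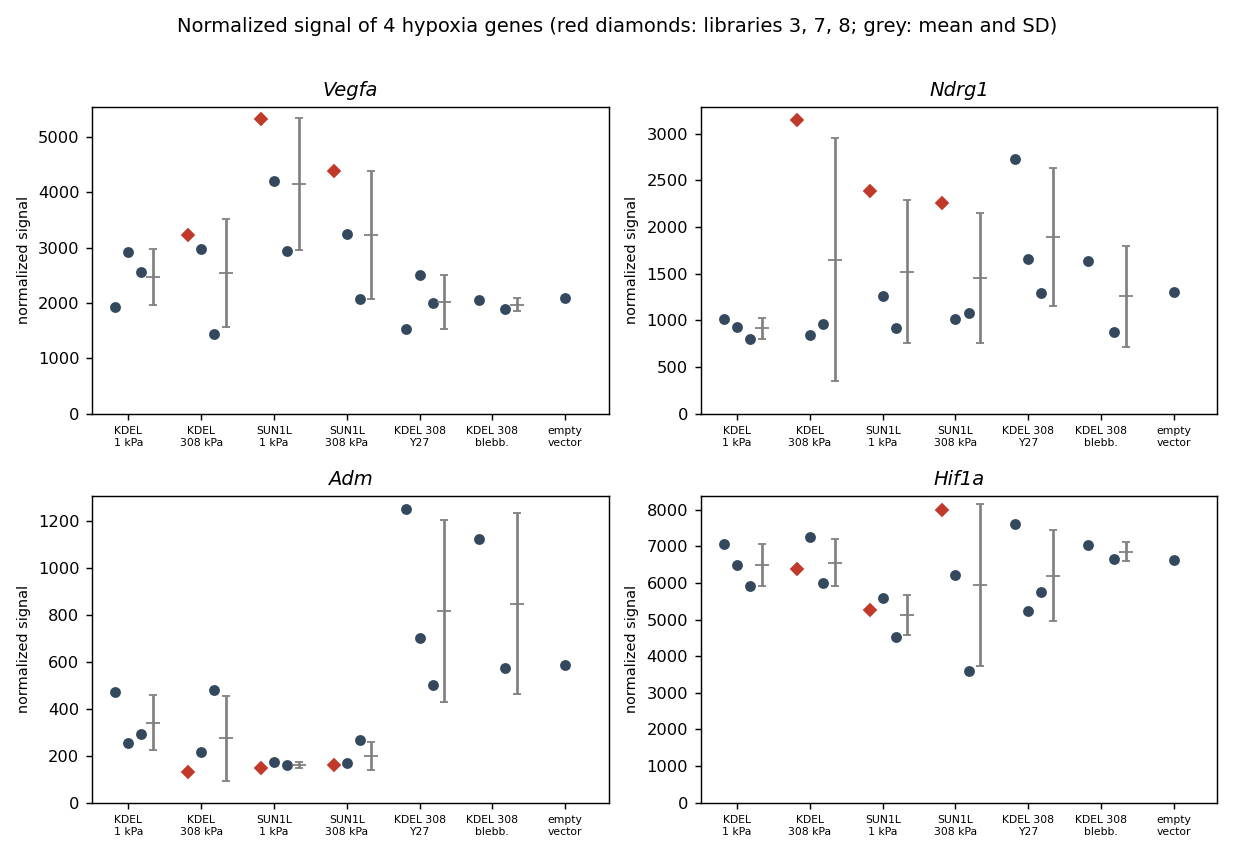
Normalized signal (vertical axis, linear from 0) of Vegfa, Ndrg1, Adm and Hif1a in each library, by group (horizontal axis), with the mean and SD of a group in grey and libraries 3, 7 and 8 as red diamonds. The red diamonds are the highest points of their groups for Vegfa and Ndrg1, and the 3 Y27 and 2 blebbistatin points of Adm, from 500 to 1250, lie above the 3 untreated points on 308 kPa, from 130 to 478. For Ndrg1 the points of libraries 4, 12 and 10 are also the highest of their groups.

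Library by library, most of the 34 genes were lower in libraries 3, 7 and 8 than in the other 2 libraries of the same group. Library 3 had the lowest value of its group for 27 of the 34 genes, library 7 for 27 and library 8 for 28, where 39%, 35.8% and 35.3% of all tested genes had theirs. In each of the 3 libraries 26 of the 34 genes were the lowest of their group, as were 22.1% of all tested genes. They comprised 19 of the 23 genes of transport, glycolysis and lactate handling and 7 of the 10 hypoxia targets. Vegfa and Ndrg1 were the highest of their group in each of the 3, as were 18.5% of all tested genes. The other 6 genes, Slc2a3, Eno2, Ldhb, Slc16a3, Ankrd37 and Hif1a, had no common place. The median difference of the 34 genes from the mean of their group mates was −0.71 (log2) in library 3, −0.77 in library 7 and −0.78 in library 8, and over all tested genes −0.02, −0.01 and −0.00. In the other 14 libraries of groups with more than 1 library the median difference of the 34 genes lay between −0.17 and 0.54. Because these libraries were marked by a member of the list, Gapdh, these counts are a description.

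The difference was not of the same size for all transcripts. Gapdh signal divided by that of the reference gene Ywhaz was 0.92 in library 3, 0.746 in library 7 and 0.939 in library 8, and 1.28 to 2.19 in the other 15 libraries. Ywhaz itself was 19174, 21583 and 21905 in these 3 libraries and 18361 to 27769 in the others. Against the geometric mean of 10 reference genes, Gapdh had ratios of 1.57, 1.41 and 1.62 in libraries 3, 7 and 8 and 1.95 to 2.52 elsewhere. That mean was itself lower in these libraries, at 11259, 11404 and 12700, with at least 14947 elsewhere. Ppia, Tubb5 and Gusb, like Actb, had their lowest 3 values in these libraries, and the other reference genes did not. Against Actb, which encodes an actin and was itself lower there (77986, 65978 and 73638, with at least 139658 elsewhere), Gapdh was not lower, with 0.226, 0.244 and 0.279 in these libraries and 0.162 to 0.224 in the others. The ratio of Tpi1 to Gapdh was 0.366, 0.383 and 0.33 in libraries 3, 7 and 8 and 0.404 to 0.536 elsewhere, so Tpi1 was lower there also relative to Gapdh. The ratio of Pgk1 to Gapdh was 1.84, 1.8 and 1.73 in them, against 1.19 to 1.72 in the other libraries but library 34, where it was 2.2. The signal of the 12 cell division genes moved with these values, as given above, and the part of cell division in the result was not tested. In RNA from whole cultures, fewer expressing cells and less RNA per cell cannot be told apart. The 3 libraries belong to 1 run of serial numbers, 3 to 12, of which libraries 4, 10 and 12 did not share the low values. For Ndrg1, libraries 4, 10 and 12 were also the highest of their groups.

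**Figure D4:**
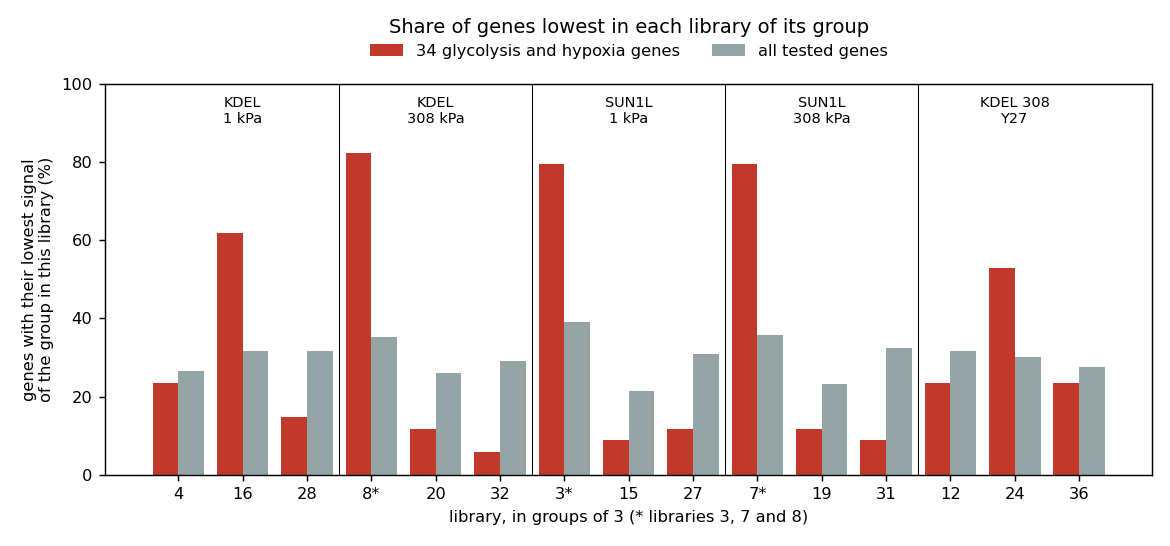
Percent of genes (vertical axis, from 0 to 100) that had the lowest signal of their group in each library (horizontal axis, groups of 3 libraries), for the 34 genes in red and all tested genes in grey. The red bars of libraries 8, 3 and 7, marked with an asterisk, stand at 82.4%, 79.4% and 79.4% beside grey bars of 35.3%, 39% and 35.8%.

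The first comparison asked whether disruption of the LINC complex changes these genes on the soft gel. None of the 34 genes was called different between SUN1L and KDEL cells on 1 kPa, a call being a Benjamini-Hochberg adjusted p under 0.05 in limma with at least a 2-fold difference, while 0.0874% of the tested genes were called. Adm was the gene with the smallest p. Its log2 fold change was −1.03 ± 0.42 (standard error, 95% interval −1.97 to −0.10), with an adjusted limma p of 0.93, and it was the 1 gene of the 34 with an unadjusted p under 0.05, which 4.54% of all tested genes had. By run of serial numbers the SUN1L and KDEL values were 149 against 473, 173 against 255 and 159 against 293. Their order follows from the lack of overlap between the groups of Adm. The groups did not overlap for 4 of the 34 genes (11.8%), against 14.5% of all tested genes. Adm, Pgam1 (log2 fold change −0.37 ± 0.31) and Hif1a (−0.34 ± 0.24) were lower in all SUN1L libraries, and Vegfa (0.73 ± 0.36, 95% interval −0.07 to 1.52) was higher.

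On the soft gel 29 of the 34 genes had a lower mean in SUN1L cells, as had 51.7% of all tested genes, and the median log2 fold change was −0.30 for the 34 genes and −0.01 for all. By role the median was −0.42 for the 2 transporters, −0.15 for the 7 genes from hexokinase to phosphofructokinase, −0.32 for the 9 from aldolase to pyruvate kinase, −0.36 for the 5 of lactate and pyruvate and −0.32 for the 10 hypoxia targets. These medians depended on library 3, which was marked for low Gapdh, so their shift without it is a description. Without libraries 3, 7 and 8 the median of the 34 genes was −0.04, the role medians lay between −0.24 and −0.02, and 22 genes were lower, where 51.9% of all tested genes were. Adm then had a log2 fold change of −0.98 ± 0.41 and was still the 1 gene with an unadjusted p under 0.05 in limma, against 4.92% of all tested genes. With a single library left out, Adm missed that threshold without library 3 (log2 fold change −0.98), 4 (−0.77), 15 (−1.09), 27 (−1.03) or 28 (−1.11). Vegfa had 0.53 ± 0.36 without libraries 3, 7 and 8, and passed the unadjusted threshold without library 27 (0.96) or 32 (0.73).

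With the run of serial numbers as a block, 5 of the 34 genes reached an unadjusted limma p under 0.05 on the soft gel, as did 14.1% of all tested genes, and none was called (0.106% of all). They were Vegfa (log2 fold change 0.73 ± 0.26), Ndrg1 (0.62 ± 0.27), Hk1 (−0.33 ± 0.14), P4ha1 (−0.44 ± 0.18) and Adm (−1.03 ± 0.39), with adjusted limma p-values from 0.326 to 0.348. A block on the run cannot remove a difference between libraries 3 and 4, which share a run. In the fit with no block and without libraries 3, 7 and 8, Ndrg1 had 0.24 ± 0.17, Hk1 −0.07 ± 0.12 and P4ha1 −0.21 ± 0.18. By run the SUN1L and KDEL values of Vegfa were 5327 against 1931, 4201 against 2922 and 2940 against 2557. Their order follows from the lack of overlap given above.

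On the stiff gel, limma called 0 of the 34 genes when SUN1L was set against KDEL, and 0.0624% of all tested genes, and 0 reached an unadjusted p under 0.05, against 2.53% of all. The groups overlapped for all 34 genes, and did not for 4.29% of all tested genes. The log2 fold changes ran from −0.46 to 0.36, with a median of −0.08 (all tested genes −0.03), and 25 of the 34 genes were lower in SUN1L cells (56.6% of all). Gapdh differed by −0.09 ± 0.41 (standard error) and Ldha by −0.02 (95% interval −1.08 to 1.04). Vegfa differed by 0.36 (95% interval −0.43 to 1.16) and Hif1a by −0.21 (95% interval −0.74 to 0.32). For Ldha, differences of up to about 2-fold were thus within the error, and the 95% interval of Aldoc was wider (−2.30 to 1.38). Libraries 7 and 8 each moved this median, to 0.21 without library 7 and −0.29 without library 8, and it was −0.18 without library 19, 0.00 without library 20, −0.25 without library 31 and 0.12 without library 32. Without libraries 3, 7 and 8 it was −0.06, with 22 genes lower (56.8% of all), and 1 of the 34 genes, Slc2a3, had an unadjusted limma p under 0.05 (log2 fold change −1.12 ± 0.39, adjusted p = 1), as had 3.89% of all. The Slc2a3 values behind it were 3.93 and 2.94 in KDEL against 1 and 1.07 in SUN1L cells, a difference of about 1 read pair.

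The effect of rigidity was then compared within each construct. Between 308 kPa and 1 kPa, 0 of the 34 genes were called in KDEL cells and 0 in SUN1L cells in limma, as were 0% of all tested genes in either. An unadjusted p under 0.05 was reached by 0 of the 34 genes in both constructs, against 1.37% of all tested genes in KDEL and 1.93% in SUN1L cells, and no gene of the 34 had groups without overlap (4.78% and 4.77% of all). In KDEL cells without libraries 3, 7 and 8, still 0 of the 34 genes had an unadjusted p under 0.05, against 1.84% of all. In KDEL cells 28 of the 34 genes had a lower mean on the stiff gel (52.3% of all), with a median log2 fold change of −0.15, and all 9 genes from aldolase to pyruvate kinase were among them. Without library 8 that median was 0.07, and without libraries 3, 7 and 8, 9 of the 34 genes were lower (50% of all). It was −0.25 without library 20 and −0.30 without library 32. Gapdh differed by −0.21 ± 0.41 (standard error) and Adm by −0.46 ± 0.42 in KDEL cells.

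In SUN1L cells the median log2 fold change with rigidity was 0.02, and 12 of the 34 genes were lower on 308 kPa, as were 52.4% of all tested genes (11 without libraries 3, 7 and 8, against 55.2% of all). The median was −0.20 without library 3, 0.31 without library 7, 0.15 without library 15, −0.07 without library 19, 0.20 without library 27 and −0.10 without library 31. Without libraries 3, 7 and 8 it was 0.06, and 2 of the 34 genes had an unadjusted limma p under 0.05 (2.98% of all), Slc2a3 with a log2 fold change of −1.06 ± 0.39 at the limit of detection and Higd1a with 0.40 ± 0.17 (adjusted p = 1 in limma for both). Higd1a was then 1459 and 1898 on 308 kPa against 1224 and 1305 on 1 kPa.

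The interaction term asked whether the difference between SUN1L and KDEL depended on rigidity. In limma 0 of the 34 genes were called and 0% of all tested genes, and 0 of the 34 and 0.905% of all had an unadjusted p under 0.05. The gene with the smallest p was Adm, with an interaction of 0.74 ± 0.60 (log2, standard error, 95% interval −0.58 to 2.06). The median of the 34 genes was 0.22 (all tested genes −0.00), −0.02 without library 3, 0.54 without library 7, 0.00 without library 8, 0.35 without library 15, 0.14 without library 19, 0.38 without library 27, 0.05 without library 31 and 0.43 without library 32. It was −0.00 without libraries 3, 7 and 8, where 0 of the 34 genes and 1.53% of all had an unadjusted p under 0.05 in limma. A negative interaction was found for 6 of the 34 genes (50.7% of all), and for 18 without those libraries (54.1% of all). With the run of serial numbers as a block, 0 of the 34 genes reached the unadjusted threshold for the stiff gel (5.92% of all), for rigidity in KDEL (5.37%) or SUN1L cells (5.52%) or for the interaction (2.08%).

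**Figure D5:**
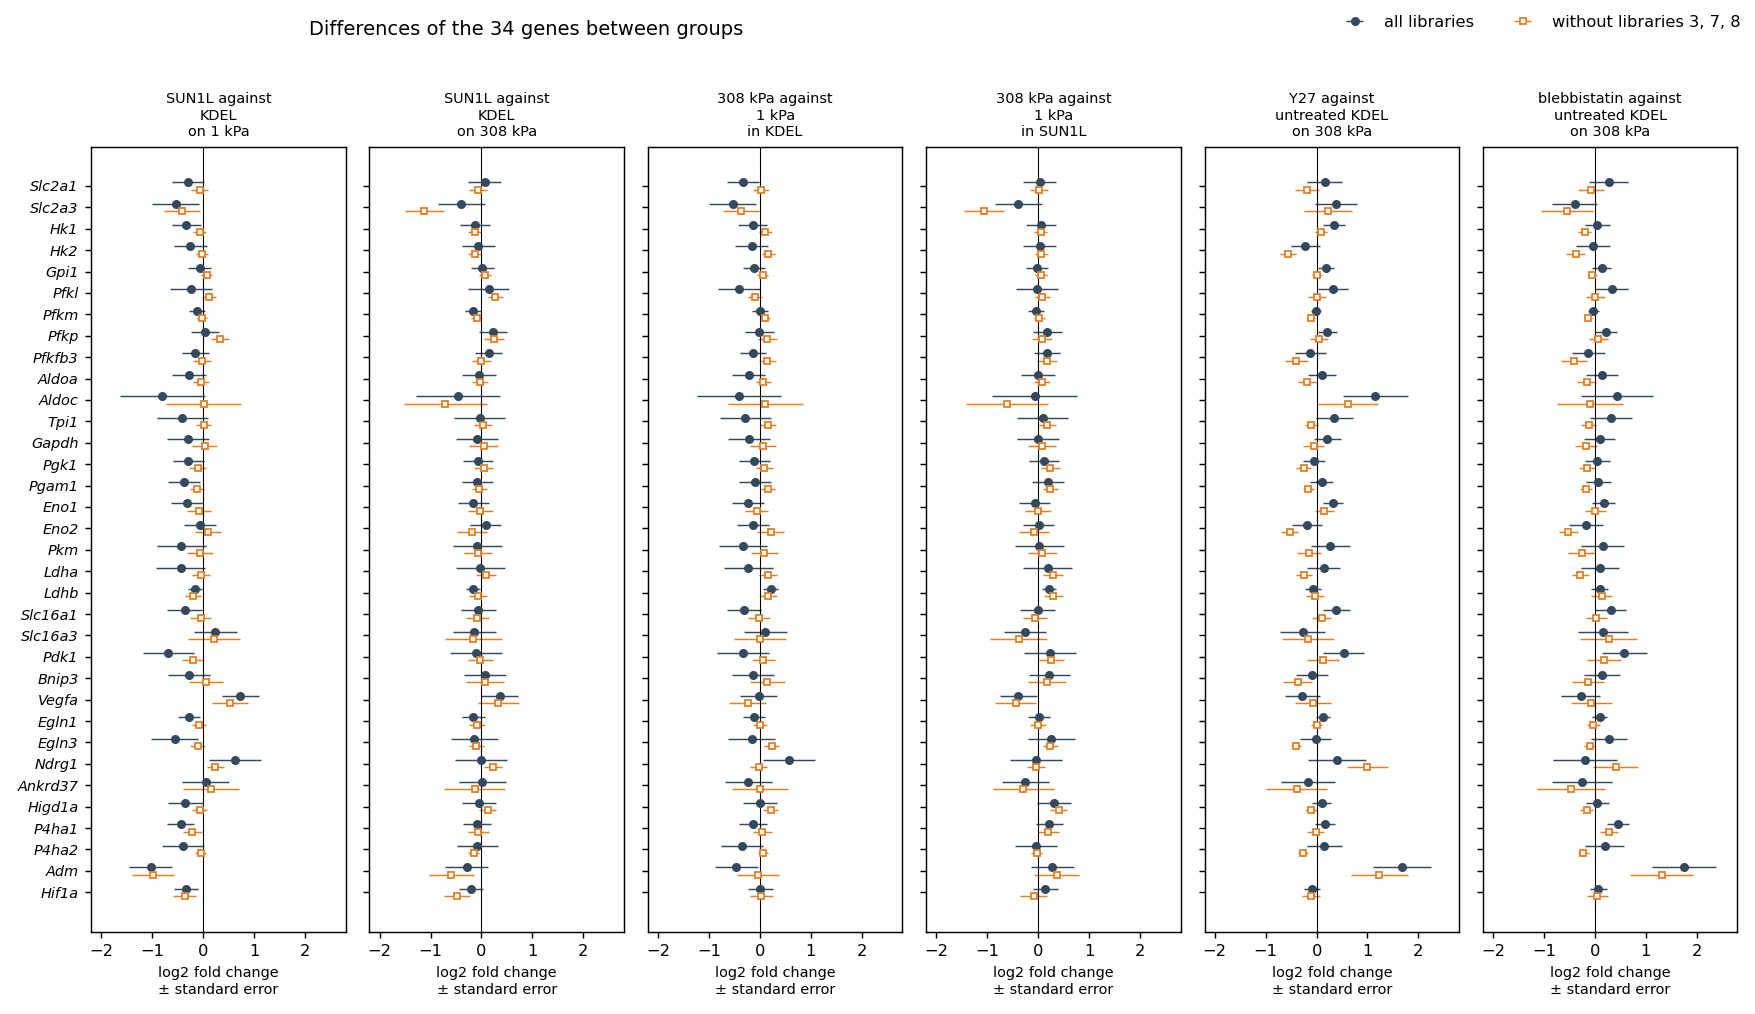
Log2 fold change of each of the 34 genes (rows) in 6 comparisons (panels), on the log2(signal + 1) scale with the standard error from limma as a bar. Filled circles use all libraries and open squares leave out libraries 3, 7 and 8, and with the latter most enzymes move towards 0 on 1 kPa while Adm has −0.98 on 1 kPa (from −1.03), 1.23 with Y27 (from 1.67) and 1.31 with blebbistatin (from 1.75).

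Both inhibitors of myosin tension were compared with the same 3 untreated KDEL libraries on 308 kPa, so their differences are not independent of each other. With Y27, 0 of the 34 genes were called in limma and 0% of all tested genes, and 1 of the 34, Adm, had an unadjusted p under 0.05, as had 5.8% of all. The log2 fold change of Adm was 1.67 ± 0.57 (95% interval 0.32 to 3.02), or 3.18-fold, with an adjusted limma p of 0.803. The groups did not overlap for 1 of the 34 genes, Adm, against 8.57% of all tested genes. In the runs of serial numbers the Y27 library had 1250 against 130, 701 against 217 and 500 against 478, so the difference was large in the run with library 8 and small in the third.

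The other genes moved less with Y27. The median log2 fold change of the 34 was 0.14 (all tested genes 0.01), 12 of the 34 were lower (47.7% of all), and Gapdh differed by 0.21 ± 0.27 (standard error), Ldha by 0.14 ± 0.33 and Hif1a by −0.09 ± 0.15. Aldoc, at 19.9 to 35.9 signal units with Y27, was the other gene past 2-fold, with 1.15 ± 0.64 (95% interval −0.37 to 2.66), where 3.65% of all tested genes were past 2-fold. Without library 8 the median was −0.10, 22 of the 34 genes were lower (48.8% of all), and 4 genes had an unadjusted limma p under 0.05, as had 7% of all tested genes. They were Hk2 (log2 fold change −0.56 ± 0.16), Eno2, an enolase (−0.53 ± 0.16), Egln3 (−0.40 ± 0.10) and P4ha2 (−0.27 ± 0.10), with adjusted limma p-values from 0.593 to 0.678. Adm then differed by 1.23 ± 0.56 (adjusted p = 0.762 in limma). It missed the unadjusted threshold without library 8, 12 (log2 fold change 1.31), 20 (1.60) or 24 (1.73). When library 32 was left out, 7 of the 34 passed that threshold, and the median was 0.33. With the run as a block there were 2 such genes, Aldoc (1.15 ± 0.39, adjusted p = 0.581 in limma) and Adm (1.67 ± 0.64, adjusted p = 0.588 in limma), against 8.5% of all tested genes.

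With blebbistatin, for which only libraries 10 and 22 were used, 0 of the 34 genes were called in limma and 0% of all tested genes, and again Adm alone had an unadjusted p under 0.05 (3.04% of all). Its log2 fold change was 1.75 ± 0.63 (95% interval 0.24 to 3.26), or 3.36-fold, with an adjusted limma p of 1. The groups did not overlap for 3 of the 34 genes (13% of all tested genes), Adm and P4ha1 (log2 fold change 0.45 ± 0.22), which were higher, and Slc2a3 (−0.40 ± 0.45), which was lower at the limit of detection. P4ha1 had 8392 and 7600 with blebbistatin and 4522, 7450 and 5904 in the untreated cells. The median of the 34 genes was 0.11 (all tested genes −0.00) and 8 of the 34 were lower (50.4% of all). Without library 8 the median was −0.11 and 23 of the 34 genes were lower (51.8% of all). Adm then differed by 1.31 ± 0.62, and 1 gene had an unadjusted limma p under 0.05, Eno2 (−0.52 ± 0.18, adjusted p = 0.971), as had 4.29% of all. Adm missed that threshold without library 8, 10 (log2 fold change 1.26) or 20 (1.68), and 5 of the 34 genes passed it without library 32. With the run as a block, Adm had 1.85 and 0 of the 34 genes were under 0.05, against 4.32% of all.

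Y27 and blebbistatin differ in target and dose, at 25 μM and 10 μM, and were compared with each other as groups. In limma 0 of the 34 genes were called and 0% of all tested genes, and 0 had an unadjusted p under 0.05 (2.32% of all). The difference of Adm was −0.08 (log2, 95% interval −1.59 to 1.43), that of Gapdh 0.11 (−0.61 to 0.84) and that of Hif1a −0.16 (−0.57 to 0.25). The groups did not overlap for 7 of the 34 genes (20.6%), against 20.4% of all tested genes. Slc2a3, Hk1, Aldoc and Slc16a1 were higher and Pgk1, Egln3 and P4ha1 lower with Y27, with log2 fold changes from −0.30 to 0.77. Without library 8, which changes only the estimate of the spread here, 1 gene of the 34, Egln3 (−0.30 ± 0.10), had an unadjusted limma p under 0.05, as had 3.75% of all (adjusted p = 0.964). With the run as a block, Ndrg1 (0.83 ± 0.29, adjusted p = 1 in limma) was the 1 such gene, against 2.87% of all tested genes.

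Further genes of the same pathways were followed in 4 lists, of which 0 genes were called in any of the 8 comparisons. The lists held 12 regulators of the hypoxia-inducible factor, 28 other hypoxia targets, 32 other glycolytic and pyruvate enzymes, of which 28 were tested, and 7 enzymes of the pentose phosphate pathway. Between SUN1L and KDEL cells on 1 kPa, an unadjusted limma p under 0.05 was reached by 1 regulator, 2 targets and 3 enzymes, and by 4.54% of all tested genes. Pdk3, a kinase of pyruvate dehydrogenase like Pdk1, had 1152, 1379 and 1484 in SUN1L and 1994, 1778 and 1828 in KDEL cells, without overlap. Its log2 fold change was −0.49 ± 0.12, with an adjusted limma p of 0.517, and it was −0.38 without libraries 3, 7 and 8. Pcx, pyruvate carboxylase, differed by −0.82 ± 0.34 (−0.58 without libraries 3, 7 and 8) and Kdm4b, a histone demethylase, by 0.52 ± 0.23 (0.38 without them). Hif3a (1.58 ± 0.54), Selenbp1 (1.47 ± 0.57) and Hkdc1 (1.73 ± 0.69), at 1.63, 1.42 and 2.32 without those libraries, had mean signals under 10 in both groups, a few read pairs. Without the 3 libraries Pcx, Kdm4b and Selenbp1 missed the unadjusted threshold. The list medians in this comparison were −0.02, 0.02, −0.07 and −0.15, in the order of the lists.

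In the other comparisons few genes of the lists had an unadjusted limma p under 0.05. Between SUN1L and KDEL cells on 308 kPa it was Ppfia4 alone (log2 fold change 1.69 ± 0.67), with 59.5 in library 7 and 11.4 and 23.2 in libraries 19 and 31, and 0.77 without libraries 3, 7 and 8 (2.53% of all tested genes passed). With rigidity it was Slc2a8, a glucose transporter, in SUN1L cells (−0.47 ± 0.17, also −0.47 without the 3 libraries), as for 1.93% of all. With Y27 it was Egln2 (0.28 ± 0.11), Car9, a carbonic anhydrase induced by hypoxia (0.57 ± 0.22), and the pentose phosphate enzymes Pgls (0.30 ± 0.11) and Rpia (0.41 ± 0.12), as for 5.8% of all. Without library 8 these were 0.19, 0.51, 0.33 and 0.40, and Egln2 and Car9 missed the threshold. With blebbistatin it was Pdha1, a subunit of pyruvate dehydrogenase (0.21 ± 0.09), and again Rpia (0.39 ± 0.14), as for 3.04% of all, with 0.17 and 0.39 without library 8, where Pdha1 missed the threshold. Rpia, which isomerizes ribose phosphate, had 846, 797 and 814 with Y27 and 830 and 791 with blebbistatin against 612, 537 and 714 in the shared untreated libraries. The smallest adjusted limma p of these genes was 0.793.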

How the data were processed

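RNA with an integrity number of 7 or more was sequenced as paired ends and mapped by the authors with TopHat v2.0 after FastQC. SAMtools and AvadisNGS served the later steps, keeping base quality of 30, alignment score of 95 and mapping quality of 40 or more. Duplicate reads were then removed by the authors. The deposited values are the AvadisNGS normalized signal per gene, scaled between libraries by the authors with TMM, with a lowest value of 1 and no correction for length. The methods name mm9, but the gene positions of the table lie on GRCm38 for 99.9% of 20148 matched symbols. Whole reads could not be recovered from the low values (38.5% to 43.5% whole within 0.01), so no count test was run. The depth in read pairs is an estimate from the steps between these values.

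The signal was tested as log2(signal + 1) with limma 3.58.1 in R 4.3.3 (moderated, with a trend, two-sided), in 1 fit of the 12 untreated libraries and 1 fit of 8 KDEL libraries on 308 kPa, over the 16021 genes with a signal above 1 in 3 or more libraries, with Benjamini-Hochberg adjustment. Fold changes are on that log2 scale and understate changes of low genes. Every value is given for Gapdh, Hif1a, genes with an unadjusted p under 0.05 in a comparison, and the 2 genes of each role with the largest SD of log2 signal. Vegfa and P4ha1 fall outside this rule and were added with their values known. Of the other lists, up to 6 genes per comparison with an unadjusted p under 0.05 are named. The 34 genes and the other lists were chosen with earlier results of these data known. Libraries were named by serial number, and their 3 runs (3 to 12, 15 to 24 and 27 to 36) served as a block in an alternative fit. Deviations from the group means correlated within runs in 18 of 18 pairs of the 12-library fit (0.10 to 0.67) and 7 of 7 pairs of the 8-library fit (0.12 to 0.28), so the runs were taken to pair the libraries. That pairing comes from the serial numbers and the data, not from a statement in the labels. The p-values measure the spread between these libraries. The fit was tested on simulated data in which libraries varied independently, so the correlation within runs was not part of that test. The alternatives are given in the closing section. No column of sample values was left unused.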

Additional observations from a re-analysis of the deposited data

Results flagged for a closer look

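Library 34, the single empty vector library on 308 kPa whose labels contradict each other, was in no comparison, and 7 of the 34 genes (20.6%) lay higher in it than in each of the other 17 libraries, as did 8.18% of all tested genes. None of the 34 lay below all others (7.21% of all tested genes). Pgk1 stood at 93885, or 1.54 times the highest other library, 61065. The signals of the other 6 were 20069 for Tpi1, 19166 for Eno1, 100469 for Pkm, 30362 for Ldha, 5068 for Slc16a1 and 2620 for Egln1. With 1 library there is no replicate check, and the treatment of these cells is not settled by the labels, so these values stand without a comparison.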

How the results depend on the processing

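No gene of the 34 was called under any alternative tried, which comprised leaving out each library, pseudocounts of 0.1 and 8, a mean filter of 10 and no filter, quantile normalization, rescaling to the same summed signal, no variance trend, array weights, all libraries in 1 fit, the replicate block, library 34 counted with blebbistatin, and libraries 3, 7 and 8 left out. The replicate block (the pairing by runs of serial numbers) moved the number of the 34 genes with an unadjusted limma p under 0.05 to 5 for SUN1L against KDEL on 1 kPa, to 2 for Y27, to 0 for blebbistatin and to 1 for Y27 against blebbistatin, where the median log2 fold change became −0.11, and it changed no other call. On 1 kPa that number was 2 with all libraries in 1 fit and 3 with array weights, and with rigidity in SUN1L cells it was 1 with array weights. Without libraries 3, 7 and 8 the number was 1 for SUN1L against KDEL on 308 kPa, 2 for rigidity in SUN1L cells, 4 for Y27 and 1 for Y27 against blebbistatin, and the median was −0.04 for SUN1L against KDEL on 1 kPa and −0.10 for Y27.

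With 1 library left out, the median of the 34 genes ran from −0.42 to −0.04 and the number from 0 to 2 for SUN1L against KDEL on 1 kPa, and from −0.29 to 0.21 and 0 to 1 on 308 kPa. For rigidity they ran from −0.30 to 0.07 and 0 to 1 in KDEL, and from −0.20 to 0.31 and 0 to 2 in SUN1L cells, and for the interaction from −0.02 to 0.54 and 0 to 1. They ran from −0.10 to 0.33 and 0 to 7 for Y27, from −0.11 to 0.26 and 0 to 5 for blebbistatin, and from −0.02 to 0.05 and 0 to 1 between the inhibitors. The cause was not tested. The 0 on 1 kPa came without library 3, 4, 15 or 28, the 7 and 5 without library 32, the 4 for Y27 without library 8, and the 0 without library 12, 20 or 24 for Y27 and library 10 for blebbistatin. An arm left with few libraries is assumed to vary like the others of its fit. Without library 32, Adm passed the unadjusted threshold for rigidity in KDEL cells (log2 fold change −0.96) and for the interaction (1.24). The number of libraries and the depth limit what could be seen of Slc2a3, Aldoc and Slc16a3.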
